A study of Salmo trutta with 45 samples.

Results

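The comparison set the livers of all 18 brown trout (*Salmo trutta*) exposed to Roundup, 6 at each of 3 doses, against the livers of 12 unexposed fish, and asked which transcripts moved in the same direction at every dose. The 30 fish were taken from the 45 of the series, and a transcript was used where the tables of all 3 doses listed it. All fish were 6-month-old juvenile females from an aquaculture facility, held for 14 days in flow-through tanks. Roundup GC was given at 0.01 mg/L to LR fish, at 0.5 mg/L to MR fish and at 10 mg/L to HR fish, counted as glyphosate acid, and controls received neither chemical. LG and HG fish, 6 of each, received glyphosate at 0.01 and 10 mg/L and were used only to set the formulation beside its active ingredient. The controls were 2 control groups that the study combined and that the labels do not tell apart. Each treatment was spread over 2 tanks, but the labels do not give the tank of a fish, so fish that shared a tank were treated as separate samples and the p-values measure only the spread between these fish.

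The liver takes up, transforms and excretes foreign chemicals, makes most of the blood's proteins and lipoproteins, and is the main site of cholesterol synthesis. Its cells also receive signals of the TGF-beta family, which includes the bone morphogenetic proteins (BMPs). These ligands bind receptor kinases at the cell surface, which phosphorylate Smad proteins that enter the nucleus and set transcription. The inhibitory Smads, Smad6 and Smad7, are made in response to the signal and block the receptors in turn, so that their transcripts are widely read as targets of the pathway.

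The controls had 12888419 to 23714531 counted reads per liver, LR fish 13246666 to 33249632, MR fish 11581569 to 22178837 and HR fish 14835341 to 23713073. The 3 tables shared 60151 transcripts of the assembled liver transcriptome, in 18255 Trinity components (groups of assembled transcripts that usually correspond to a gene), and 41465 transcripts had a match in zebrafish, to 10227 genes. LR3, MR1 and HR3 stood apart from the other livers. Over transcripts above a mean of 1 CPM (counts scaled to library size), their root mean square distance from the control mean was 0.807, 1.1 and 0.836 on the log2 scale, against 0.457 to 0.611 in the controls and 0.436 to 0.721 in the other Roundup fish. The pooled comparison was therefore fitted with 30 fish and again with these 3 left out (27 fish). They were chosen by values of the same data and only among exposed fish. The p-values with 27 fish make no allowance for that choice. Values are from 30 fish unless 27 are named. MR1 also had the fewest counted reads of the 30 fish (11581569). LR3 and HR3 had 15997052 and 17664652, and the part of depth in the distances was not tested. Summed hepatocyte markers were 14600 to 18500 CPM in controls and 15000 to 22300 CPM in Roundup fish, which fits the label of liver tissue. The summed markers of exocrine pancreas (35.1 to 264 CPM in controls, 30.8 to 200 in Roundup fish), red blood cells (166 to 341 and 190 to 428), leukocytes (105 to 259 and 98.8 to 233), endothelial and stellate cells (338 to 481 and 318 to 468) and bile duct or intestine (199 to 463 and 188 to 453) overlapped between the groups. In whole liver, fewer cells of a type and less RNA per cell cannot be told apart.

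**Figure D1:**
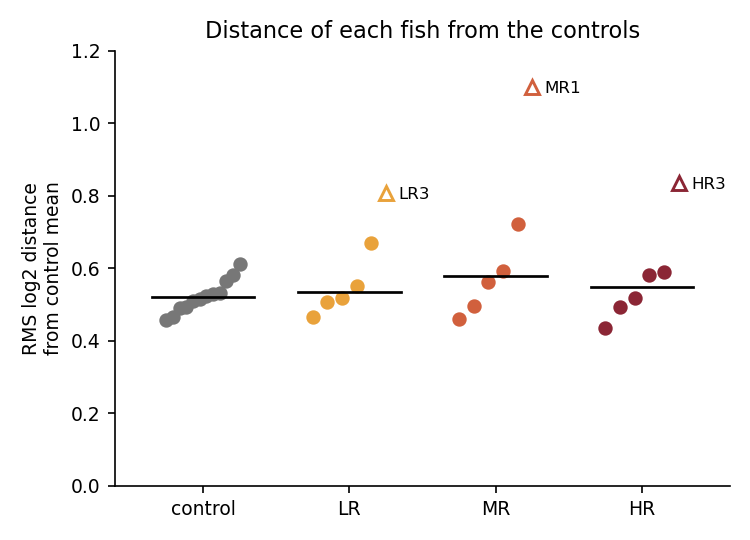
Distance of each fish from the controls, as the root mean square of log2 differences in CPM from the control mean over transcripts above a mean of 1 CPM (y axis), by group (x axis); circles are fish, open triangles are LR3, MR1 and HR3, and black lines are group medians. The 3 triangles lie at 0.807, 1.1 and 0.836, above all 12 controls, whose highest value is 0.611.

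One gene passed the test across all transcripts with 30 fish. *smad7* was down-regulated in Roundup-exposed livers, in 2 of its assembled transcripts, and both stayed below the controls at LR, MR and HR. These were the 2 transcripts, 0.00332% of the 60151, with a false discovery rate (FDR) below 0.1 by edgeR's quasi-likelihood test with Benjamini-Hochberg adjustment, and the same 2 met the rule for a change common to all doses (called with 30 and with 27 fish, with the same sign at each dose; 0.00332%). No transcript was called higher by this test, while 3548 (5.9%) were higher and 2457 (4.08%) lower at an unadjusted p below 0.05. The 3 dose groups were measured against the same 12 controls, so a sign shared by the doses is not independent evidence.

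The first of the *smad7* transcripts was at 3.39 CPM in the lowest control, 6.23 at the control median and 8.96 in the highest control. The lowest, median and highest fish were at 1.55, 2.83 and 3.07 CPM in LR, 1.81, 3.00 and 4.56 CPM in MR, and 2.37, 3.63 and 4.38 CPM in HR. All 18 Roundup fish were below the control median and 12 were below every control, which included all 6 LR fish. The transcript fell by 1.03 on the log2 scale (SE 0.146, adjusted p = 0.00264), and with 27 fish it fell by 0.934 (SE 0.138, adjusted p = 0.00925). None of the 100000 permutations of the fish gave a larger difference (2-sided permutation p = 1e-05, the smallest they can give). This permutation p and those by dose below are not adjusted for the choice of the transcript by its smallest p in the same fish. They are therefore not separate support.

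By dose, the log2 fold change of this transcript was -1.26 in LR, -1.0 in MR and -0.85 in HR. Exact permutation tests of 6 against 12 fish gave p = 5.39e-05, the smallest possible, for LR, 0.000485 for MR and 0.000646 for HR. Fitted alone with the controls, it passed the threshold in LR, where 11 transcripts did (0.0183%; adjusted p = 0.0755), and not in MR or HR, where 1 (0.00166%) and 4 (0.00665%) transcripts did (adjusted p = 0.179 and 0.216). The difference among the doses themselves was not called (unadjusted p = 0.234). When each fish was left out in turn, the fold change stayed between -1.08 and -0.969 and the adjusted p reached at most 0.0108.

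The second *smad7* transcript was at 3.94, 6.89 and 9.63 CPM in the lowest, median and highest control and at 1.77, 3.75 and 5.99 CPM in the Roundup fish. All 18 Roundup fish were again below the control median, and 10 were below every control. It fell by 0.848 on the log2 scale (SE 0.142, adjusted p = 0.0318), and by 0.793 with 27 fish (SE 0.135, adjusted p = 0.0543). Its call was lost without control C6 or control C7, where the adjusted p rose to at most 0.109. The assembly places both transcripts in a component of 6, all of which had fold changes below 0. Of the other 4, 3 match a different gene (*c11orf46*) and 1 has no match, and since isoforms of a component share reads, the division of reads among them is uncertain.

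**Figure D2:**
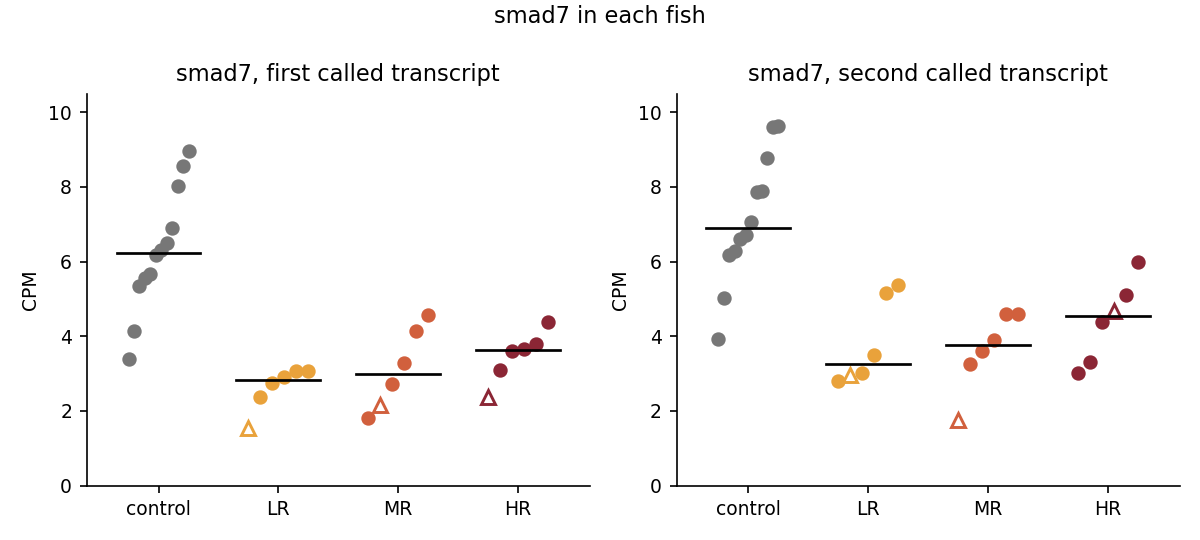
Abundance of the 2 called *smad7* transcripts (CPM, y axis; first transcript left, second right) in controls, LR, MR and HR (x axis); circles are fish, open triangles are LR3, MR1 and HR3, and black lines are group medians. In the left panel all 18 Roundup fish lie at or below 4.56 CPM, under the control median of 6.23.

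Leaving out LR3, MR1 and HR3 raised the number of called transcripts from 2 to 11 (0.0183%), of which 3 were higher (0.00499%) and 8 lower (0.0133%). Besides *smad7*, the lower calls were *anxa5b* (an annexin, which binds membrane phospholipids in the presence of calcium), *smad6b* (the other inhibitory Smad), 2 transcripts of *nr2f1a* (an orphan nuclear receptor) and 1 of *mcf2l*. With 27 fish, *anxa5b* fell by 0.788 on the log2 scale (adjusted p = 0.0904), *smad6b* fell by 0.536 (adjusted p = 0.0933), the *nr2f1a* transcripts fell by 0.469 and 0.468 (adjusted p = 0.0933 and 0.0904) and *mcf2l* fell by 1.1 (adjusted p = 0.0933), all by the quasi-likelihood test. The same transcripts were at -0.72, -0.52, -0.55, -0.56 and -1.3 with 30 fish and were not called (adjusted p = 0.167 each). The 3 higher calls were isoforms of *zgc:162608*, a zebrafish gene known by its clone name, at 1.62 to 1.66 with 27 fish (adjusted p = 0.0745 to 0.0904) and 1.52 to 1.57 with 30 fish (adjusted p = 0.183 to 0.189). The last lower call had no match and was at -6.18 with 27 fish and 0.43 with 30. It was at 608 CPM in MR1, 659 in HR3 and 621 in control C9, and of these only C9 was in the fit of 27 fish. No other fish was above 2.57 CPM for it.

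Since only *smad7* met the rule, the other genes described were taken by smallest p among uncalled transcripts with a named match, 1 per component and gene, to 12 in each direction. Their adjusted p with 30 fish lay between 0.16 and 0.176, so none of the other 23 is a called change of the pooled comparison, and 8 components without a match were passed over in each direction. edgeR's exact test, run with the prior degrees of freedom that the study states, called 12 of the 12 lower and 11 of the 12 higher genes. The study names edgeR and its dispersion setting but not the test. DESeq2 called 11 of the lower genes, giving no adjusted p for *mcf2l*, and all 12 of the higher genes. Over all transcripts these tests called 0.84% and 1.04%. Both used the same counts from which the genes were picked by smallest p, so their calls are not separate support.

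Among the lower transcripts, 3 belonged to regulators of transcription. *nr2f1a* was at 15.0, 17.8 and 20.8 CPM in the lowest, median and highest control and at 4.03, 12.4 and 17.1 CPM in Roundup fish. It separated the groups most fully of the 12, with 16 of 18 Roundup fish below every control, at fold changes of -0.48, -0.63 and -0.55 in LR, MR and HR. *rxraa*, a retinoid X receptor that pairs with other nuclear receptors, was at 1.08, 1.76 and 2.14 CPM in controls and 0.393, 0.968 and 1.60 CPM in Roundup fish (-0.74, SE 0.158, adjusted p = 0.167; -0.64 with 27 fish). All 18 Roundup fish were below the control median and 12 below every control, but the sum over its component was at 0.05 (adjusted p = 0.953). The fall was thus seen for that isoform and not for the sum, and the division of reads among isoforms is uncertain. *tbx2b*, a T-box repressor, was at 2.44, 3.82 and 5.29 CPM in controls and 1.00, 2.65 and 3.46 CPM in Roundup fish (-0.67, SE 0.150, adjusted p = 0.167). Of the Roundup fish, 8 were below every control.

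The inhibitory Smad *smad6b* was at 7.64, 10.4 and 12.2 CPM in the lowest, median and highest control and at 3.84, 7.82 and 9.92 CPM in Roundup fish. All 18 Roundup fish were below the control median and 8 were below every control, at -0.43, -0.72 and -0.42 in LR, MR and HR. *anxa5b* was at 7.42, 11.8 and 15.8 CPM in controls and 3.69, 6.29 and 13.3 CPM in Roundup fish, of which MR1 was the highest. *zfp36l1a*, which binds AU-rich elements of messenger RNAs and speeds their decay, was at 5.27, 6.89 and 10.9 CPM in controls and 2.67, 5.04 and 6.68 CPM in Roundup fish (-0.57, SE 0.120, adjusted p = 0.167; -0.55 with 27 fish). The sum over its component was at -0.20 (adjusted p = 0.276). Every Roundup fish was below the control median for it and 11 were below every control.

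Other lower transcripts encode enzymes and signalling proteins. *dio2*, the deiodinase that turns thyroxine into its active form, had a control range of 0.336 to 3.75 CPM with a median of 1.51 CPM and a Roundup median of 0.503 CPM. No read of it was counted in LR4, MR1, HR3 and HR4, where 3 reads would be 0.187 to 0.295 CPM, and its fold changes were -1.48, -1.66 and -2.58 in LR, MR and HR. Its pooled value was -1.83 (SE 0.396, adjusted p = 0.167), and -1.71 with 27 fish. *mid1ip1l*, a relative of the mammalian protein that promotes the assembly of acetyl-CoA carboxylase, was at 1.93, 2.40 and 4.33 CPM in controls and 0.942, 1.29 and 3.26 CPM in Roundup fish. Of the 18 Roundup fish, 15 were below every control (-0.84, SE 0.164, adjusted p = 0.16). *ndufa4l2*, a mitochondrial protein that hypoxia induces in mammals, spread from 1.28 to 16.9 CPM in controls and from 0.698 to 5.00 CPM in Roundup fish (-1.29, SE 0.288, adjusted p = 0.167). By dose it was at -2.07, -1.05 and -0.989 in LR, MR and HR, so the LR fish had the largest fall. The isoform of *mcf2l* chosen by smallest p was at -1.2 (SE 0.236) and *pik3r3b*, a regulatory subunit of phosphoinositide 3-kinase, at -0.73 (SE 0.166), with Roundup medians of 0.459 and 0.776 CPM against control medians of 1.09 and 1.3 CPM. For *pik3r3b* the LR value was also the farthest from 0, at -1.2, -0.435 and -0.666 in LR, MR and HR.

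Among the higher transcripts, *lrrc24*, a leucine-rich repeat protein named from a fish other than zebrafish, had the smallest p. It was at 0.779, 2.29 and 2.57 CPM in the lowest, median and highest control and at 2.08, 3.45 and 6.20 CPM in Roundup fish, with 16 of 18 above every control. Its fold changes were 0.92, 0.82 and 0.82 in LR, MR and HR and 0.85 in the pooled fit (SE 0.164, adjusted p = 0.16). *mknk2b*, a kinase that phosphorylates the translation factor eIF4E, was at 4.45, 6.18 and 8.00 CPM in controls and 4.13, 10.3 and 22.6 CPM in Roundup fish (0.80, SE 0.172, adjusted p = 0.167). MR1 and HR3 were its highest fish, and without the 3 fish it was at 0.62. The sum over its component was at 0.52 (adjusted p = 0.206), and at 0.28 with 27 fish. *srebf2*, the transcription factor that switches on cholesterol synthesis, was at 1.27, 1.98 and 3.12 CPM in controls and 1.56, 3.84 and 8.90 CPM in Roundup fish. Above every control were 11 Roundup fish, with LR2 highest (1.06, SE 0.235, adjusted p = 0.167; 0.87 with 27 fish).

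A pair of the higher transcripts rested on a few fish. *tlr5b*, a receptor for bacterial flagellin, ran from 0.606 to 3.38 CPM in controls, while MR1 was at 136, HR3 at 72.1, MR4 at 51.1 and LR3 at 28.7 CPM and the Roundup median was 3.01 CPM. Its pooled fold change of 3.56 (SE 0.791, adjusted p = 0.167) became 2.14 without LR3, MR1 and HR3. *zgc:91890*, whose mouse match is a riboflavin transporter, was at 156 CPM in MR1, 125 in LR3 and 70.5 in HR3 with a Roundup median of 0.728 CPM, against 0.111 to 3.34 CPM in controls. It went from 4.88 to 2.45 without those fish, and the permutation test of its mean log2 CPM gave p = 0.0514.

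The remaining higher transcripts varied less, but for several of them the isoform was farther from 0 than its component. *rnd3a* was at 1.11, 3.14 and 3.75 CPM in controls and 1.81, 5.32 and 22.9 CPM in Roundup fish (1.43, SE 0.319; 1.36 with 27 fish), although its component sum was at 0.09. The clock repressor *cry1b* was at 0.96, 1.31 and 1.80 CPM in controls and 1.14, 2.13 and 3.28 CPM in Roundup fish (0.66, SE 0.152; 0.62 with 27 fish), with 13 fish above every control and a component sum at 0.35 (adjusted p = 0.147). *chka*, the kinase that commits choline to phosphatidylcholine, was at 0.75 (SE 0.176) and its component at 0.36, and *vps37a*, a subunit of the complex that sorts proteins into endosomal vesicles, was at 0.67 (SE 0.160) and its component at 0.49. With 27 fish these isoforms were at 0.78 and 0.57. *zgc:162608*, *tex2* and *c19orf24* were at 1.58 (SE 0.367), 0.41 (SE 0.0960) and 0.51 (SE 0.116), and between 10 and 11 of the Roundup fish were above every control for each of them. This isoform of *zgc:162608* was at 2.11, 1.55 and 0.81 in LR, MR and HR. Its HR median was 2.2 CPM against 1.86 CPM in controls (exact permutation p = 0.183 for HR).

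**Figure D3:**
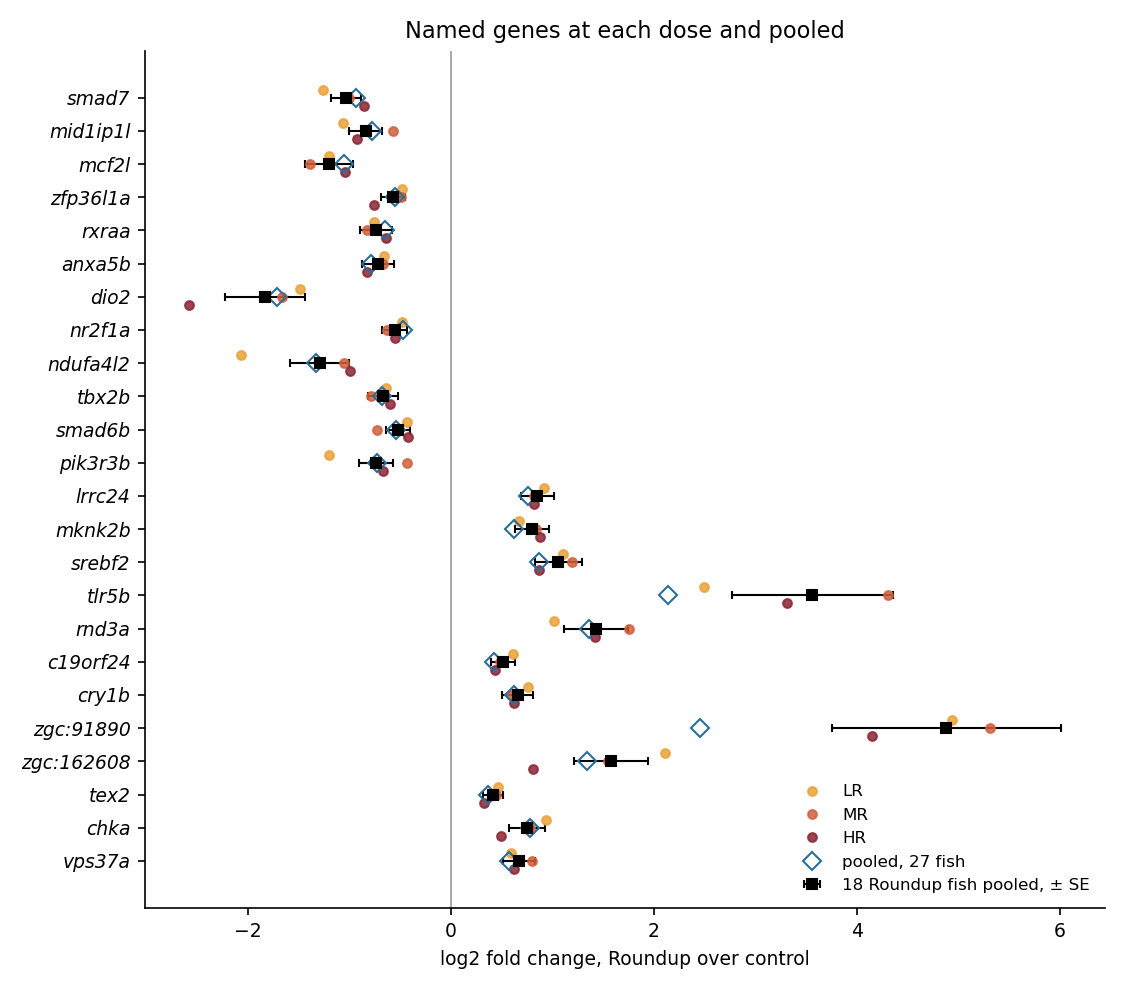
Log2 fold change against the 12 controls (x axis) of the 24 genes taken by smallest p (y axis); black squares with bars are the 18 pooled Roundup fish ± SE, coloured circles are LR, MR and HR, and open diamonds are the pool without LR3, MR1 and HR3. *smad7* is the only called gene, and the diamonds of *tlr5b* and *zgc:91890* lie at 2.14 and 2.45, left of the squares at 3.56 and 4.88.

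Summing the isoforms of each component gave more calls. With 30 fish, 29 of 18255 components were called (0.159%), 10 higher (0.0548%) and 19 lower (0.104%), and 11 (0.0603%) were called with 27 fish. The rule for all doses was met by 6 components (0.0329%). They were those of *smad7* (-0.79), *nr2f1a* (-0.55), *anxa5b* (-0.58) and *smad6b* (-0.52), which fell, and those of *lrrc24* (0.86) and of 1 component without a match (0.76), which rose, with adjusted p from 0.000502 to 0.0919. The *smad7* component also holds the reads assigned to *c11orf46*. Further components called with 30 fish were lower for *tbx2b*, *mid1ip1l*, *ndufa4l2*, *rbfox2* (a splicing regulator), *jag1b* (a Notch ligand), *lrrc16b* and *bahcc1*, and higher for *tlr5b*, *rad54l2* and a match to autophagy related 2B (0.34, adjusted p = 0.0919), but none of these was called with 27 fish.

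The number of called transcripts differed between tests. edgeR's exact test gave 505 (0.84%; 307 higher, 0.51%, and 198 lower, 0.329%) with 30 fish and 61 (0.101%; 22 higher, 0.0366%, and 39 lower, 0.0648%) with 27. Of these, 56 were called in both, and all 56 had the same sign at each dose, 18 higher and 38 lower. DESeq2 gave 529 of the 50821 transcripts with an adjusted p (1.04%; 350 higher, 0.689%, and 179 lower, 0.352%), 81 with 27 fish (0.135%), and 65 that met the rule. Called common to all doses by both tests were 26 lower transcripts, in 22 components, and 15 higher transcripts, in 10 components. In addition to genes described above, the lower ones included *bhlhe40*, a transcriptional repressor of the clock, at -0.97 and -1.05 in a pair of isoforms (exact test, adjusted p = 0.0189 and 0.0391), *bmp5*, a BMP ligand, at -1.02 (adjusted p = 0.0278) and *alpk2*, an alpha-kinase, at -0.92 (adjusted p = 0.0374). The higher ones included *lpcat3*, which places polyunsaturated fatty acids into membrane phospholipids, at 0.97 (adjusted p = 0.0231), *abca1*, the cholesterol exporter, at 0.49 (adjusted p = 0.0743) and *mkx*, a homeobox factor, at 1.35 (adjusted p = 0.0478). These genes were chosen after their values were seen.

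Whether the doses differed from each other was tested within the 18 Roundup fish. The quasi-likelihood test called 0 of 60146 transcripts, and 0 without LR3, MR1 and HR3, and DESeq2 called 3. By the quasi-likelihood test 1777 (2.95%) had an unadjusted p below 0.05, a smaller share than that threshold gives when nothing differs. The smallest p among named genes belonged to *col16a1*, a collagen, whose median was 1.05 CPM in LR, 0.407 in MR and 1.12 in HR. All 6 MR fish were at or below 0.452 CPM and all 12 LR and HR fish at or above 0.689 CPM, but its adjusted p was 1. The next were *dhrs13*, a dehydrogenase at medians of 0.376, 1.86 and 0.497 CPM, *si:ch211-251f6.6* at 9.09, 1.01 and 5.98 CPM, and *lum*, a matrix proteoglycan, at 1.53, 1.42 and 3.30 CPM, all with an adjusted p of 1.

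Roundup was compared with glyphosate alone at the 2 doses both had, 0.01 and 10 mg/L, in 24 fish. No transcript of 59976 was called by the quasi-likelihood test, and 0 without LR3, HR3 and LG1, while DESeq2 called 3, all lower in Roundup fish. By the quasi-likelihood test 2581 (4.3%) had an unadjusted p below 0.05, again a smaller share than that threshold gives when nothing differs. For the first *smad7* transcript the lowest, median and highest fish were at 2.67, 5.28 and 6.37 CPM in LG and 3.10, 4.22 and 6.59 CPM in HG. Against the controls, LG was at -0.43 (SE 0.209, adjusted p = 0.753) and HG at -0.55 (SE 0.199, adjusted p = 0.743), beside -1.26 for LR and -0.85 for HR. The direct difference, Roundup minus glyphosate, was -0.56 (SE 0.167, unadjusted p = 0.00249, adjusted p = 1) and was therefore not called. A difference between the formulation and its active ingredient was not shown for this transcript, nor was its absence.

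For the other named genes of the pooled comparison the glyphosate values varied in size. Each had the same sign in LG as in Roundup fish, and in HG all did but *srebf2* and *chka* (*chka* at -0.06). The genes were picked against the same controls, so a shared sign is not separate support. *tlr5b* was at 3.07 in LG and 1.62 in HG (SE 0.617 and 0.525), and *dio2* at -1.23 and -0.82 (SE 0.533 and 0.568). *lrrc24* was at 0.21 in LG and 0.16 in HG (SE 0.249 and 0.303), *nr2f1a* at -0.27 and -0.18 (SE 0.140 and 0.121), and *rxraa* at -0.56 and -0.78 (SE 0.256 and 0.232). *srebf2* was at 0.85 in LG and -0.03 in HG (SE 0.292 and 0.213). All of these share the 12 controls with the Roundup values and none was called, nor was any of the 59705 transcripts in either glyphosate group by the quasi-likelihood test. The named genes with the smallest p for the direct difference were *si:ch211-136m16.8* (0.76, SE 0.164), *txnip*, an inhibitor of thioredoxin (-0.82, SE 0.183), *rgs3*, which dampens G-protein signalling (-0.72, SE 0.165), and *fbxl6*, an F-box protein (0.94, SE 0.216), each with an adjusted p of 1.

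Gene lists were described by 1 transcript per zebrafish gene, the one with the highest mean CPM. Over all 10227 genes, 774 (7.57%) were higher and 346 (3.38%) lower at an unadjusted p below 0.05 with 30 fish, together 11%, and 412 (4.03%) and 272 (2.66%) with 27 fish, together 6.69%, with a median log2 fold change of 0.02 in both. By sign alone, 5590 of them were above 0 and 4637 below with 30 fish, and 5709 and 4518 with 27. Counts of genes above or below 0 in a list are to be read beside these. Among the listed genes only *smad7* was called with 30 fish, so the counts that follow describe leanings of uncalled genes, and no list as a whole was tested.

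In the sterol synthesis list, 13 of 24 genes were higher and 1 lower at an unadjusted p below 0.05 with 30 fish, and the counts were the same with 27, with 11 of the higher genes in both. The median log2 fold change was 0.42 with 30 fish and 0.44 with 27. It was 0.51 in LR, 0.55 in MR and 0.14 in HR, so the 10 mg/L fish had the smallest value. The genes with the smallest p were *ch25h*, which makes a hydroxylated sterol (2.94, SE 0.821, adjusted p = 0.212), *srebf2* (0.82 for this isoform, SE 0.231, adjusted p = 0.215), *scap*, the sterol-sensing escort of SREBPs (0.73, SE 0.208, adjusted p = 0.221), and *fdft1*, squalene synthase (1.21, SE 0.355, adjusted p = 0.223). *fdft1* ran from 2.93 to 10.3 CPM in controls and from 3.31 to 54.1 CPM in Roundup fish, with medians of 5.24 and 9.98 CPM, and was at 1.69, 1.32 and 0.31 in LR, MR and HR. *ch25h* went from 2.94 to 0.88 without the 3 fish. The gene lower in the list, named after its value was seen, was *hmgcs1*, which makes the precursor of mevalonate (-0.30, SE 0.130, adjusted p = 0.425).

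The mean level of the sterol list in each fish, as a log2 difference from the control mean, was above 0 in 16 of 18 Roundup fish, and 4 of these were above every control. The controls ran from -0.60 to 0.62. LR2, MR4 and MR6 were highest, and MR1, the fish farthest from the controls, was at 0.05.

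The antioxidant and glutathione list had 11 of 29 genes higher and none lower at an unadjusted p below 0.05, and 6 higher with 27 fish, all 6 among the 11. *gclm*, a subunit of the enzyme that starts glutathione synthesis, was at 1.35, 3.27 and 7.77 CPM in the lowest, median and highest control and at 2.16, 5.81 and 11.5 CPM in Roundup fish. The groups overlapped (0.81, SE 0.233, adjusted p = 0.223), and its value was 0.80 with 27 fish. *keap1*, the sensor that holds back the Nrf2 factor, was at 0.49 (SE 0.143), *fth1b*, a ferritin chain that stores iron, at 1.38 (SE 0.408), and *gpx4*, which reduces lipid peroxides, at 0.43 (SE 0.129), with adjusted p from 0.223 to 0.230. For *gpx4* the sum over the component was at 0.14 (adjusted p = 0.455). The median of the list was 0.16 with 30 fish and 0.08 with 27. By dose it was 0.05 in LR, 0.30 in MR and 0.07 in HR, so the MR fish had the largest value.

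The circadian clock list had 6 of 26 genes higher and 1 lower, and 5 higher and 1 lower with 27 fish. Repressors of the clock made up its leading genes. *cry2b* was at 0.54, 1.44 and 3.29 CPM in controls and 1.11, 2.47 and 4.43 CPM in Roundup fish (0.83, SE 0.214, adjusted p = 0.192), and *per2* was at 1.63, 2.98 and 5.40 CPM and 2.71, 4.51 and 7.48 CPM (0.62, SE 0.167, adjusted p = 0.201). *bhlhe40* was on the lower side, at 11.3, 15.9 and 19.3 CPM in controls and 2.07, 10.4 and 15.5 CPM in Roundup fish (-0.71, SE 0.189, adjusted p = 0.198), and its component was called with 27 fish, where it fell by 0.724 (adjusted p = 0.0856). The hour at which each fish was sampled is not in the labels, so its part in these values was not tested.

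The lists of stress signalling and innate immunity had fewer genes on the higher side without LR3, MR1 and HR3. Over all genes that share went from 7.57% to 4.03%. Of 16 AP-1 and early response genes, 12 were higher and 1 lower with 30 fish and 5 and 1 with 27. The NF-kB and TNF list went from 13 to 5 higher of 23, the innate sensor and interleukin list from 10 to 3 of 22, and the MAP kinase list from 7 to 2 of 19. *fosl2*, an AP-1 subunit, went from 3.33 to 1.51, *atf3*, a stress-induced factor, from 2.26 to 0.95, and *relb*, an NF-kB subunit, from 1.71 to 0.71 when the 3 fish were left out. The level of the AP-1 list was 2.53 in MR1, 1.59 in HR3 and 1.2 in LR3, while the other Roundup fish reached at most 0.82 and the controls 0.50. For the NF-kB list MR1 and HR3 were at 2.14 and 1.55, and the highest control was at 0.35. MR4 (0.873) and LR4 (0.733) were above LR3 (0.705) for that list. Above every control were 6 Roundup fish for the AP-1 list and 7 for the NF-kB list, so the higher levels were not limited to those 3 fish.

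The same held for the chaperones of the endoplasmic reticulum, where 6 of 26 genes were higher with 30 fish and 1 with 27. *syvn1*, a ubiquitin ligase for misfolded proteins, was at 0.49 and 0.33 in the 2 fits, *xbp1*, a factor of the unfolded protein response, at 0.79 and 0.39, and *hspa5*, the main chaperone of this compartment, at 1.41 and 0.29. Among the Roundup fish the level of the list was highest in LR3 (1.38), MR1 (1.11) and HR3 (1.09), of which only LR3 was above the highest control (1.15). Cytosolic heat shock proteins had 3 of 13 genes higher with 30 fish and 0 with 27.

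**Figure D4:**
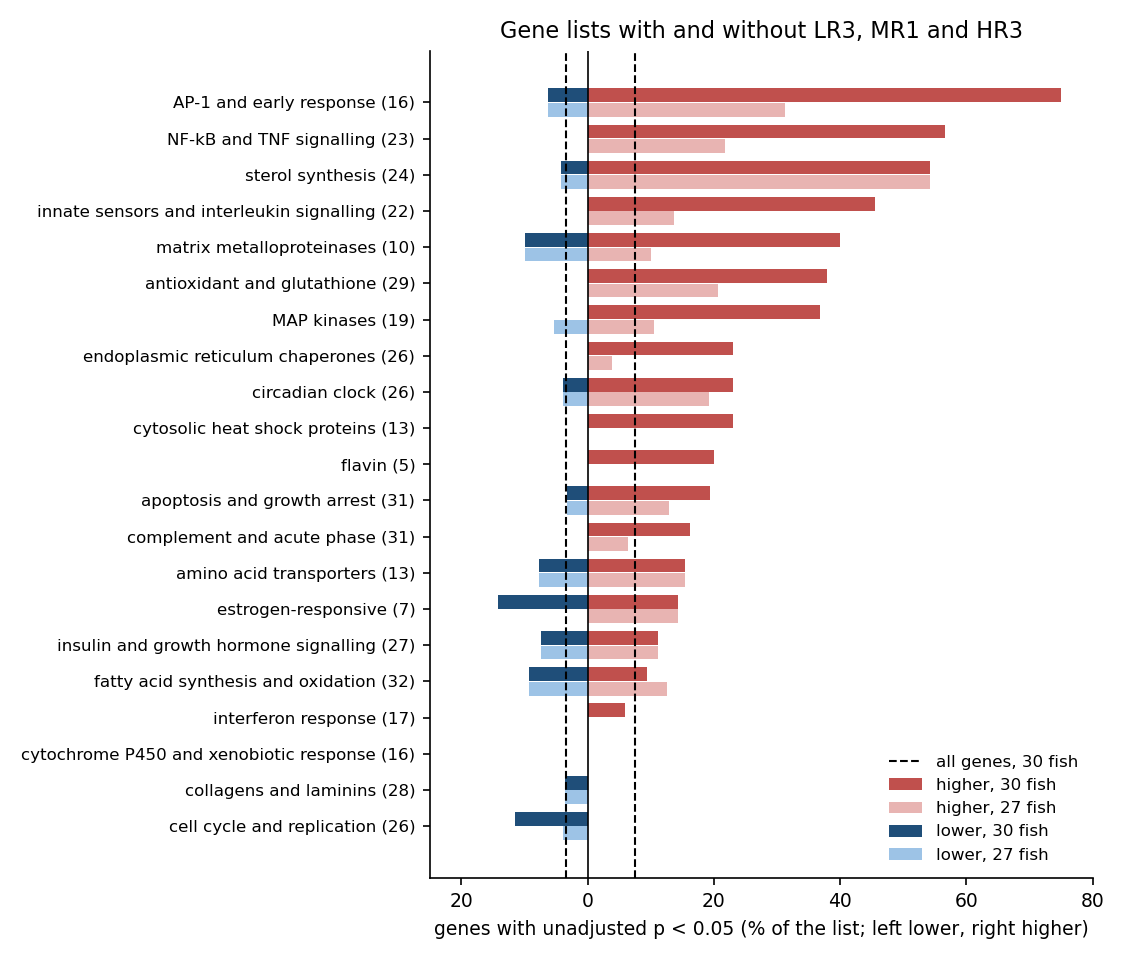
Share of each gene list (y axis, number of genes in brackets) at an unadjusted p below 0.05 (x axis, % of the list). Higher genes are to the right and lower genes to the left. Dark bars are 30 fish and pale bars 27 fish. Dashed lines mark all 10227 genes with 30 fish, at 7.57% and 3.38%. The shares with 27 fish, 4.03% and 2.66%, are not drawn. The TGF-beta and BMP list and the cell marker lists are not shown. The AP-1 bar drops from 12 to 5 of 16 genes without LR3, MR1 and HR3, while the sterol synthesis bars stay at 13 of 24.

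**Figure D5:**
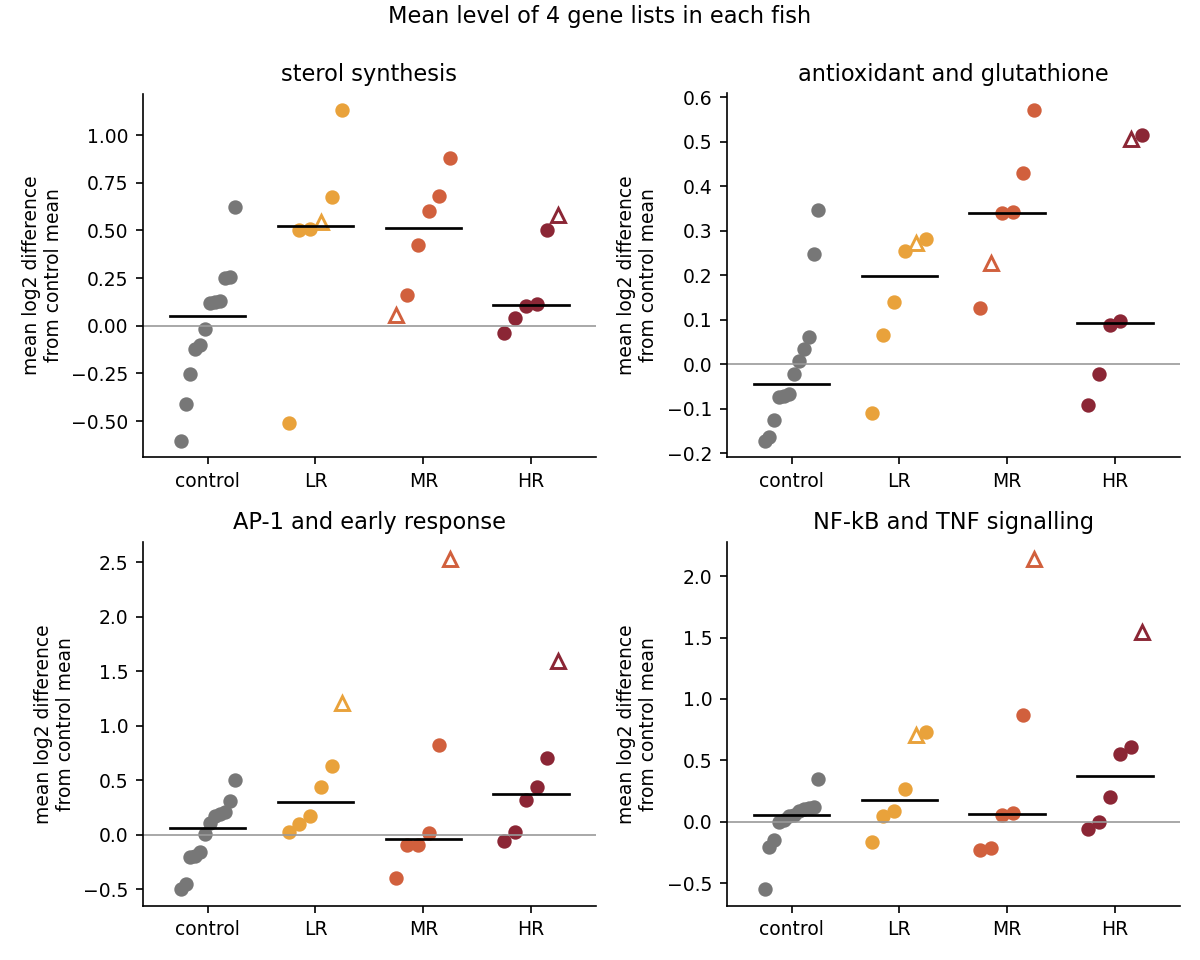
Mean log2 difference from the control mean (y axis) over the genes of 4 lists in each fish, by group (x axis); circles are fish, open triangles are LR3, MR1 and HR3, and black lines are group medians. The triangles top the AP-1 panel at 2.53, 1.59 and 1.2, whereas in the sterol panel MR1 lies at 0.05.

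Smaller leanings were seen in other lists. Of 31 complement and acute phase genes, 28 had fold changes above 0, but 5 were under an unadjusted p of 0.05, and 2 with 27 fish. *cp*, the copper carrier ceruloplasmin, was at 314 to 541 CPM in controls and 392 to 777 CPM in Roundup fish (0.28, SE 0.0983, adjusted p = 0.308; 0.20 with 27 fish). Of 28 collagens and laminins, 22 were below 0, but by dose the list median was 0.04 in LR, -0.39 in MR and -0.01 in HR. The leaning was therefore mainly that of the MR fish. In this list *lamb1*, a chain of the basement membrane protein laminin, was at 6.6, 7.45 and 9.15 CPM in controls and 3.2, 5.37 and 8.78 CPM in Roundup fish (-0.47, SE 0.123, adjusted p = 0.196; -0.46 with 27 fish). Among 26 cell cycle genes 3 were lower at an unadjusted p below 0.05, and 1 of them with 27 fish. Of these, *mcm6*, a subunit of the replication helicase, was at -0.56 (SE 0.179, adjusted p = 0.263). By sign most of the list was on the higher side, with 17 of the 26 above 0 (median 0.0228), and 23 with 27 fish (median 0.117). None of the 16 cytochrome P450 and xenobiotic response genes was under an unadjusted p of 0.05 in either fit by the quasi-likelihood test. Of 7 estrogen-responsive genes, *vtg1*, the egg yolk precursor, was on the higher side at an unadjusted p below 0.05 (1.98, SE 0.735, adjusted p = 0.333; 2.2 with 27 fish), with 2.1 to 69.3 CPM in controls and 1.38 to 407 CPM in Roundup fish. On the lower side was *esr2*, an estrogen receptor (-0.43, SE 0.194, adjusted p = 0.447), and the median of the list was -0.04. The gene *esr2* was named after its values were seen.

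Because the called gene inhibits TGF-beta and BMP signalling, 49 genes of that pathway were listed after the values of *smad7* and *smad6b* were known, and the counts are a description. Of these, 10 were lower and 1 higher at an unadjusted p below 0.05 with 30 fish, and 9 and 0 with 27, with 8 of the lower genes in both. Over all genes 3.38% were lower with 30 fish and 2.66% with 27. The lower genes of both fits include *smad7* and *smad6b*, which prompted the list, so those members are no support for it. The median was -0.08 and 31 of 49 were below 0. After the inhibitory Smads came *id2*, at 2.51, 5.18 and 9.76 CPM in controls and 1.61, 3.38 and 5.91 CPM in Roundup fish (-0.70, SE 0.194, adjusted p = 0.210; -0.64 with 27 fish), and *id1*, at 10.7, 14.0 and 18.2 CPM and 6.19, 10.8 and 14.4 CPM (-0.36, SE 0.117, adjusted p = 0.267; -0.38 with 27 fish). Both encode inhibitors of DNA binding that BMPs induce. The others on the lower side were the ligands *bmp5* (-0.74) and *bmp2* (-0.36), the receptor *bmpr1a* (-0.38), the decoy receptor *bambi* (-0.35), the signal carrier *smad1* (-0.79) and the corepressor *ski* (-0.41). By dose, *id2* was at -0.67, -0.73 and -0.71 in LR, MR and HR. In contrast, *id1* and *bmpr1a* were at -0.56 and -0.58 in LR and both at -0.10 in HR. *smad1* had few reads, with medians of 0.71 CPM in controls and 0.446 CPM in Roundup fish (SE 0.357). The gene on the higher side was *ctgf*, a secreted target of TGF-beta, at 1.02 with 30 fish and 0.43 with 27. Of 19 endothelial and stellate cell markers 13 were below 0 with 30 fish and 11 with 27, with 1 lower and none higher at an unadjusted p below 0.05 with 30 fish and 2 lower and none higher with 27. Their sum, of which 1 gene made up 58.4%, had medians of 404 CPM in controls and 386 CPM in Roundup fish. Of 11 bile duct or intestine markers 9 were below 0, and *fabp2* and *epcam* were lower in both fits (-0.44 and -0.29 with 30 fish), a pair named after its values were seen. The part of these cells in the values of the pathway was not tested.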

How the data were processed

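Livers of 30 fish (12 controls, 6 each of LR, MR and HR) and, for 1 comparison, 12 glyphosate fish (LG, HG) were used. Per the labels and the study's methods, the authors prepared TruSeq libraries, sequenced them as paired reads on an Illumina instrument, assembled a transcriptome with Trinity, mapped reads with Bowtie2 2.1.0 (best hit only), took a read count per transcript with SAMtools 0.1.18 and annotated transcripts by Blastx against Ensembl peptides. The deposited values used are these raw counts. The tables also hold the authors' own edgeR fold changes, mean abundances, p-values, FDRs and calls, which were not used. With best-hit counting, reads of near-identical isoforms and gene copies are split arbitrarily.

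Control columns were the same in every table (0 counts differed), and tables were joined by transcript. A transcript was kept where 6 or more fish had 1 or more reads. edgeR 4.0.16 (R 4.3.3) was used with TMM factors, quasi-likelihood F-tests, 2-sided, no covariate, and Benjamini-Hochberg adjustment over all transcripts, at FDR below 0.1. SE was computed as the absolute log2 fold change divided by the square root of the F statistic, so it rests on the same test as the p-value. CPM uses TMM library sizes; permutation tests used log2 CPM with a prior count of 2. Alternatives were edgeR's exact test (prior degrees of freedom 10), DESeq2 1.42.0, limma-voom (limma 3.58.1), component sums, other filters, scalings and thresholds, single doses, a replicate block and leaving out fish. The script was tested on simulated data.

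Named genes were, per direction, the 12 with the smallest p, calls common to all doses first, 1 per component and gene, annotated only; per list, the 2 to 4 with the smallest p; and the 4 with the smallest p for doses and for glyphosate. The comparison, the lists and the 3 fish left out were chosen with earlier results of these data known. Counts limit the precision: 1 read is worth more CPM in a shallower library. The MG fish were not used here.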

Additional observations from a re-analysis of the deposited data

Results flagged for a closer look

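In groups of 6 fish, 7 of the 93 sets of values examined had 1 fish far from the other 5, by the ratio of its gap to the nearest fish over the whole range of the group, against Dixon's 95% critical value. Chance alone marks about 1 group in 20. The 6 single genes were *mid1ip1l*, where LR4 was the highest LR fish (ratio 0.675), *dio2*, where LR4, with no counted read, was the lowest LR fish (0.665), *ndufa4l2*, where HR1 was the lowest HR fish (0.651), *pik3r3b*, where MR4 was the lowest MR fish (0.703), *chka*, where HR6 was the lowest HR fish (0.694), and *vps37a*, where HR3 was the highest HR fish (0.699). The summed exocrine pancreas markers were highest in HR4 among the HR fish (0.728), at 200 CPM against a median of 41.3 CPM in that group.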

How the results depend on the processing

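The 2 calls of the pooled comparison became 505 with edgeR's exact test, 529 with DESeq2, 9 with limma-voom, 29 with component sums, 11 without LR3, MR1 and HR3, 1 at an FDR of 0.01 and 0 with a replicate block. It stayed at 2 with DESeq2's size factors, robust fitting, other filters, an FDR of 0.05 and adjusted deviances. Single doses gave 11 (LR), 1 (MR) and 4 (HR). Chosen after seeing the data, the fits without the 3 fish gave 61 by the exact test, 81 by DESeq2 and 11 components. Leaving out 1 fish gave 1 to 5 calls, with 1 without C6 or C7 and 5 without MR1. The 2 transcripts common to all doses became 56 by the exact test, 65 by DESeq2, 6 components, 1 at an FDR of 0.05 or 0.01 and 0 with the block. The 0 calls among doses, and against glyphosate, became 3 each by DESeq2 and stayed 0 without any 1 fish. The causes were not tested. Of the 24 named genes, all kept their direction with DESeq2, other size factors, 27 fish, the block and each fish left out; with component sums 23 did, and *rxraa* reversed to 0.0534. With other size factors the heat shock list went from 3 to 4 higher genes, and no other list's counts differed. The replicate numbers did not meet the bar for pairing, a correlation above 0.1 in every pair: over 36 same-numbered pairs the correlation ran from -0.424 to 0.503 with a median of 0.0705 and 16 above 0.1, beside 72 of 288 other-numbered pairs above 0.1 (median -0.0032), and 4 of 24 fish correlated best with their own number. Failing this bar does not show that the numbers share nothing, since a larger share of the same-numbered pairs was above 0.1. With the block *smad7* was at -0.971 (adjusted p = 0.456). Controls numbered above 6 have no Roundup fish of their number, so in the block fit they added nothing to the comparison. Low counts, near 1 CPM for several named genes, and the shared tanks limit what can be called.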

Other observations

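Metabolic and growth lists held genes on both sides, by 1 transcript per zebrafish gene at an unadjusted p below 0.05 with 30 fish, where 7.57% of all genes were higher and 3.38% lower. Of 32 genes of fatty acid synthesis and oxidation, 3 were higher and 3 lower. *plin2*, which coats lipid droplets, was at 1.2 to 6.95 CPM in controls and 1.38 to 79.0 CPM in Roundup fish (1.62, SE 0.481, adjusted p = 0.224) and went to 0.80 without LR3, MR1 and HR3. *acsbg2*, an acyl-CoA synthetase, was at -0.78 (SE 0.286, adjusted p = 0.328), and *ppargc1a*, a coactivator of mitochondrial genes, at -0.77 (SE 0.290, adjusted p = 0.341). Of 27 insulin and growth hormone signalling genes, 3 were higher and 2 lower in each fit, with 2 of the higher and 2 of the lower genes shared by the fits. Among them *irs2*, an adaptor of the insulin receptor, was at 7.27, 9.59 and 19.0 CPM in the lowest, median and highest control and at 9.02, 13.1 and 21.4 CPM in Roundup fish (0.44, SE 0.137, adjusted p = 0.253).

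Single genes stood out in small lists, and the lower ones were named after their values were seen. Of 13 amino acid transporters 2 were higher in both fits and 1 was lower in each: the higher ones were *slc3a2*, the heavy chain shared by several transporters, at 5.78, 9.4 and 11.7 CPM in controls and 7.97, 13.3 and 48.0 CPM in Roundup fish (0.91, SE 0.226, adjusted p = 0.188), and *slc43a1*, a carrier of large neutral amino acids (3.18, SE 0.816, adjusted p = 0.189), at 1.98 without the 3 fish. The lower one was *slc6a16* with 30 fish (-0.60) and, with 27, another gene that matches *slc3a2* (-0.44, and -0.33 with 30 fish). Of 31 apoptosis and growth arrest genes 6 were higher and 1 lower, and 4 and 1 with 27 fish. *aifm2*, an oxidoreductase that protects membranes from lipid peroxidation in mammals, was at 4.37, 5.75 and 8.11 CPM in controls and 3.51, 8.58 and 14.7 CPM in Roundup fish (0.58, SE 0.142, adjusted p = 0.183), and *g0s2*, an inhibitor of lipolysis, went from 3.94 to 1.62 without the 3 fish. Of 10 matrix metalloproteinases and relatives 4 were higher and 1 lower with 30 fish, while *mmp9* was higher (2.17 and 1.17) and *adamts10* lower (-0.51 and -0.35) in both fits. Among 17 interferon response genes 1 was higher with 30 fish and 0 with 27, both by the quasi-likelihood test.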
